A study of Homo sapiens with 12 samples.

Results

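YAP1 and its paralogue WWTR1 (TAZ), the 4 TEAD transcription factors and 4 of their best known target genes, CCN1, CCN2, ANKRD1 and AMOTL2, were followed across all samples. These 10 genes were chosen by name, with earlier results of these data known, and each matched 1 of the 57820 gene identifiers measured. RNA came from 12 samples of G401, an established line from a human rhabdoid tumour whose genotype is labelled SMARCB1(-/-). SMARCB1 is a subunit shared by several SWI/SNF (BAF) remodellers of chromatin. Doxycycline induced either GFP or SMARCB1, and both states received DMSO, the solvent, or dBRD9-A for 24 hours. dBRD9-A degrades BRD9, which belongs to the BAF assembly known as non-canonical. This gave 4 groups of 3 replicates: GFP with DMSO, GFP with dBRD9-A, SMARCB1 with DMSO and SMARCB1 with dBRD9-A. All groups share the G401 background and doxycycline, SMARCB1 comes from an induced construct, and the labels do not say whether a state is 1 clone or whether replicates are separate cultures. The p-values therefore measure the spread between these samples, which may be technical.

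The Hippo pathway is a kinase cascade that restrains cell growth. Its kinases STK3 and STK4 activate LATS1 and LATS2, which phosphorylate YAP1 and WWTR1 and hold them in the cytoplasm. Unphosphorylated YAP1 and WWTR1 enter the nucleus, where they bind TEAD proteins on DNA and switch on genes for matricellular proteins, cytoskeletal regulators and inhibitors of the pathway itself. Control of YAP1 and WWTR1 therefore lies largely in the protein, while the RNA measured here reports the amount of transcript of effectors and targets.

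The sequence that TEAD proteins bind, the MCAT motif GGAATG, was searched on both strands in the 250 bases before each RefSeq start site (GRCh38.p14). The promoter table held 7 of the 10 genes and lacked CCN1, TEAD1 and TEAD4, which were therefore not searched. Over all 35116 promoters in it, 11.89% had at least 1 match, 0.94% at least 2 and 0.083% at least 3. CCN2, which encodes a matricellular protein, had 3 matches, and its window on chr6:131951373-131951622 (minus strand) is printed because it is the densest of the set. Capitals mark the motif, at 169 to 164, 104 to 99 and 95 to 90 bases before the start site.
CCN2: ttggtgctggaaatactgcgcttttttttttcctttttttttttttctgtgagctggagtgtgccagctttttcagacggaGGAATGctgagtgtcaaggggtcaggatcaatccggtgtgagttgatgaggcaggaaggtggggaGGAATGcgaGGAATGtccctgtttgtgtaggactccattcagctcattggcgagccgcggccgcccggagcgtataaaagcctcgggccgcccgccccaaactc

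ANKRD1, which encodes an ankyrin repeat protein of the muscle sarcomere and nucleus, had 2 matches, 220 to 215 and 128 to 123 bases before its start. AMOTL2, an angiomotin family protein that binds YAP1, had 1 match on the reverse strand (CATTCC) before 1 of its 2 listed start sites and none before the other. YAP1 had 1 match, and TEAD2, TEAD3 and WWTR1 had none in these windows. The 30 bases around the matches of these 3 genes are shown for comparison with CCN2, with the motif in capitals, on chr10:90921290-90921319 and chr10:90921198-90921227 (minus strand) for ANKRD1, chr3:134374499-134374528 (minus strand) for AMOTL2 and chr11:102110273-102110302 (plus strand) for YAP1.
ANKRD1 distal: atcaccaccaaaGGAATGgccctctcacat
ANKRD1 proximal: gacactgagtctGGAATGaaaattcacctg
AMOTL2: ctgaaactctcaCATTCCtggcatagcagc
YAP1: cgggagtgtgcaGGAATGtagcaacttgca
The AP-1 motif was searched as TGANTCA with any base at N, which 6.57% of all promoters held. It matched once, in ANKRD1, with the letters TGATTCA. The CArG box, in 1.16%, matched none of the windows. A match is a description of letters, and binding was not measured here.

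Libraries held 34.97 to 58.54 megacounts (1e6 counts) assigned to genes. SMARCB1 had 0 to 2 counts in each of the 6 GFP libraries and 53033 to 110893 in the SMARCB1 libraries, so the induced gene followed the labels in every library. Its level was 1875 ± 59.4 CPM (counts per 1e6 of the scaled library total) (SD, n = 3) in SMARCB1 cells with DMSO, and dBRD9-A brought it to 1307 ± 27 CPM. The part of that drop in any result below was not tested. Vimentin, a mesenchymal protein, was abundant at 1268 to 2310 CPM per group, and PTPRC and MYOD1, markers of leukocytes and skeletal muscle, had 0 counts. Among epithelial markers, EPCAM had 27 to 44 counts per library in GFP cells with DMSO and 0 to 2 in SMARCB1 cells with DMSO, while CDH1 had 2 to 4 and 33 to 36, and their part in the results was not tested. Spike-in RNA took 1.265% to 1.302% of counts in GFP cells with DMSO and 0.9634% to 1.06% with dBRD9-A. It took 1.085% to 1.21% in SMARCB1 cells with DMSO and 1.177% to 1.295% with dBRD9-A. Under scaling to spike-ins the median over all genes (log2) was 0.36 for dBRD9-A in GFP cells and -0.14 in SMARCB1 cells. For SMARCB1 against GFP the medians became 0.17 in DMSO and -0.32 with dBRD9-A. Unless spike-in scaling is named, a direction is thus one against the median gene (TMM scaling, where these medians were between -0.005 and 0.009). In bulk RNA a change in the number of cells of a kind and a change in RNA per cell cannot be told apart.

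**Figure D1:**
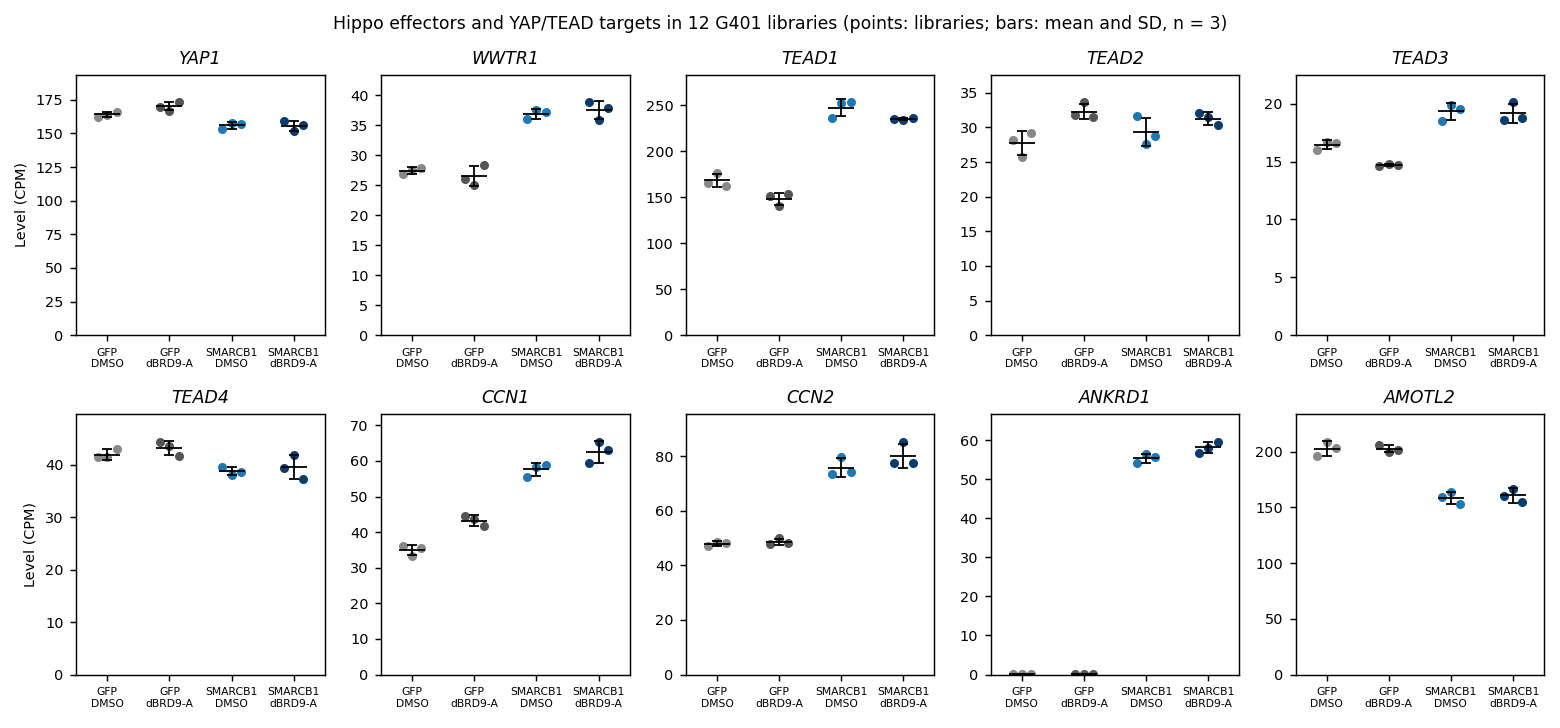
Level of each of the 10 genes (CPM, axis from 0) in the 12 libraries by group, with points for libraries and bars for the mean and SD of 3 replicates. ANKRD1 is near 0 in the GFP libraries and between 54.2 and 59.6 CPM in the SMARCB1 libraries, CCN1, CCN2, TEAD1 and WWTR1 are higher with SMARCB1, and AMOTL2 is lower.

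The question of how SMARCB1 alters this pathway was addressed in DMSO first. ANKRD1 went from a few counts to one of the large rises of the transcriptome, CCN1 and CCN2 rose by about the same moderate step, and AMOTL2 fell. Among the regulators, WWTR1, TEAD1 and TEAD3 rose, YAP1 and TEAD4 were lower by small margins, and TEAD2 did not pass the test. In all, 9 of the 10 genes were called at an adjusted p under 0.05, 6 higher and 3 lower, where the same test called 65% of all 15750 genes, 33.5% higher and 31.6% lower. With spike-in scaling 7 were higher and 1 was lower, among 59.8% of all genes called. The libraries of the 2 groups did not overlap for 9 of the 10, against 68.7% of all genes. All 10 genes passed the filter on low counts, their median log2 fold change was 0.33, and that of all genes was -0.005.

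ANKRD1 had 2, 7 and 8 counts in the GFP libraries with DMSO. It had 2070, 2237 and 3233 counts in the SMARCB1 libraries with DMSO, or 54.2, 56.4 and 55.6 CPM. The groups were far apart, and the SMARCB1 libraries differed little among themselves. Summed over libraries, 17 counts stood against 7540, a ratio of 507 with an exact binomial 95% interval of 316 to 871, which covers counting error only. The fitted log2 fold change was 8.95 (adjusted p 6.33e-20), and it ranked 34 from the top of 15750 genes. No other annotated gene overlaps ANKRD1 in GENCODE 29.

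CCN2 measured 47.0, 48.6 and 48.3 CPM in GFP libraries with DMSO and 73.4, 79.8 and 74.2 CPM in SMARCB1 libraries with DMSO. Its groups did not overlap, with a log2 difference of 0.66 (SE 0.04, adjusted p 1.71e-10). CCN1, the other matricellular CCN protein among the genes, measured 36.1, 33.3 and 35.6 CPM in GFP cells and 55.6, 58.4 and 59.0 CPM in SMARCB1 cells. Each SMARCB1 library lay above each GFP library, with a log2 change of 0.72 (SE 0.04, adjusted p 9e-11). AMOTL2 measured 196, 209 and 203 CPM in GFP cells and 159, 164 and 153 CPM in SMARCB1 cells, the reverse order. Its log2 fold change was -0.36 (SE 0.03, adjusted p 6.07e-08) and -0.19 (adjusted p 0.0115) with spike-in scaling. Of the 4 targets, 3 thus rose, CCN1 and CCN2 by similar amounts and ANKRD1 by far more, and AMOTL2 fell.

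WWTR1 measured 26.9, 27.5 and 27.9 CPM in GFP cells and 36.0, 37.6 and 37.2 CPM in SMARCB1 cells in DMSO. The groups did not overlap, with a log2 change of 0.43 (SE 0.05, adjusted p 1.92e-07). YAP1 measured 162, 164 and 166 CPM in GFP cells and 153, 158 and 157 CPM in SMARCB1 cells. That log2 difference was -0.07 (SE 0.03, adjusted p 0.0201). It missed the threshold once GFP DMSO replicate 3 (adjusted p 0.0654) or SMARCB1 DMSO replicate 1 (0.0719) was removed, and turned to 0.09 (adjusted p 0.233) with spike-in scaling.

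Among the DNA-binding partners, TEAD1 measured 166, 176 and 162 CPM in GFP cells and 236, 252 and 253 CPM in SMARCB1 cells in DMSO. Its log2 fold change was 0.56 (SE 0.04, adjusted p 4.24e-10), with no overlap between groups. TEAD3 lay between 16.0 and 16.7 CPM in GFP libraries and between 18.5 and 19.9 CPM in SMARCB1 libraries, a rise of 0.23 (SE 0.05, adjusted p 0.000288). TEAD2 ranged from 25.8 to 29.2 CPM and from 27.6 to 31.6 CPM, overlapping, with a log2 difference of 0.08 (95% interval -0.04 to 0.19, adjusted p 0.233). With spike-in scaling TEAD2 was called, at 0.25 (adjusted p 0.00455). TEAD4 lay between 41.4 and 43.1 CPM with GFP and between 38.0 and 39.5 CPM with SMARCB1, and its log2 fold change was -0.12 (SE 0.04, adjusted p 0.024). That call was lost in the DESeq2 test (adjusted p 0.0525) and without GFP DMSO replicate 3, SMARCB1 DMSO replicate 2 or SMARCB1 DMSO replicate 3 (0.102, 0.0825 and 0.0562), and the value was 0.06 (adjusted p 0.52) with spike-in scaling.

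The comparison of SMARCB1 with GFP was also made in the 6 libraries treated with dBRD9-A, which share none with the DMSO comparison. Both comparisons used the same cell states and a spread estimated over all 12 libraries, so they are not independent of each other. Again 9 of the 10 genes were called, 6 higher and 3 lower, against 63.3% of all genes, 33% higher and 30.4% lower. The 9 genes and their directions were those of the DMSO comparison, and TEAD2 was again not called. The libraries did not overlap for 8 of the 10, against 66.2% of all genes. ANKRD1 had 4, 10 and 5 counts in GFP libraries and 2286, 3146 and 2561 counts in SMARCB1 libraries, a ratio of 356 (exact binomial 95% interval 228 to 591) and rank 40 from the top. CCN2 measured 47.8, 50 and 48.1 CPM against 77.7, 85.3 and 77.5 CPM, which is a log2 change of 0.72 (SE 0.04, adjusted p 6.65e-11). CCN1 rose by 0.53 (SE 0.04, adjusted p 5.93e-09) and AMOTL2 was at -0.33 (SE 0.03, adjusted p 1.73e-07). These are close to the DMSO values for CCN2 and AMOTL2, while the CCN1 value was smaller by 0.19, a difference that is tested below.

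WWTR1 was higher by 0.50 (SE 0.05, adjusted p 4.39e-08), TEAD1 by 0.66 (SE 0.04, adjusted p 4.63e-11) and TEAD3 by 0.39 (SE 0.05, adjusted p 2.09e-06). YAP1 was at -0.13 (SE 0.03, adjusted p 0.000387). TEAD4 was at -0.13 (SE 0.04, adjusted p 0.0158), with libraries of 41.7 to 44.4 CPM in GFP cells and 37.3 to 41.9 CPM in SMARCB1 cells that overlapped. Without GFP dBRD9-A replicate 1 or SMARCB1 dBRD9-A replicate 3 the TEAD4 call was lost (adjusted p 0.0635 and 0.0697). Spike-in scaling gave 4 higher and 4 lower genes, where it called 71% of all genes, 2129 of them higher and 9046 lower. WWTR1 (0.17, adjusted p 0.0535) and TEAD3 (0.06, adjusted p 0.528) lost the call, and TEAD2 gained one at -0.37 (adjusted p 4.57e-05). ANKRD1 at 8.13, CCN2 at 0.39, TEAD1 at 0.34 and CCN1 at 0.21 were the genes still higher.

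**Figure D2:**
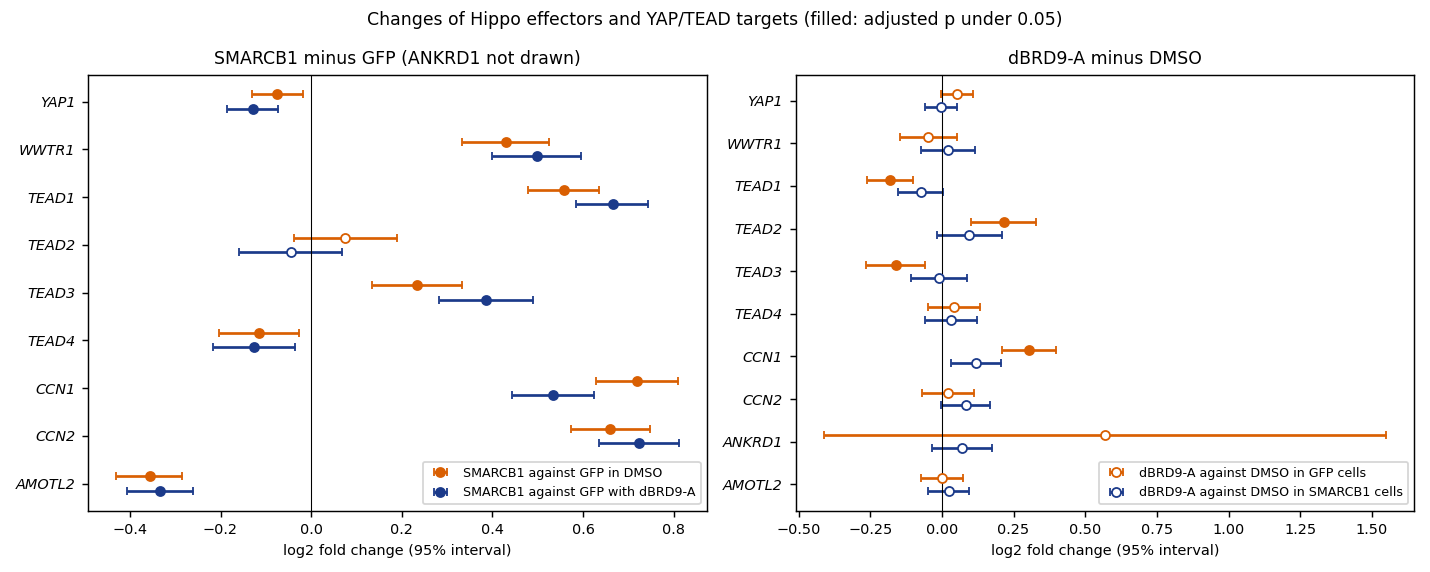
Log2 fold changes with 95% intervals for SMARCB1 against GFP (left) and dBRD9-A against DMSO (right), filled where the adjusted p is under 0.05; ANKRD1 is not drawn on the left. There, CCN1, CCN2, TEAD1, WWTR1 and TEAD3 lie above 0 and AMOTL2, TEAD4 and YAP1 below 0 in both treatments; on the right, 4 genes are called in GFP cells and 0 in SMARCB1 cells.

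Levels of different genes were compared after division by the length of all exons in GENCODE 29, which may differ from the annotation used for counting. In GFP cells with DMSO the order from the top was AMOTL2 (33.9 ± 1.13 CPM per kb, SD, n = 3), YAP1 (26.1 ± 0.276), CCN2 (20.5 ± 0.37), TEAD4 (18.5 ± 0.455), TEAD1 (16.4 ± 0.702) and CCN1 (14.3 ± 0.609). TEAD2, TEAD3 and WWTR1 followed at 9.31, 5.40 and 3.26 CPM per kb, and ANKRD1 was last at 0.0579. In SMARCB1 cells with DMSO, CCN2 led at 32.4 ± 1.48 CPM per kb, followed by ANKRD1 at 28.0 ± 0.564 and AMOTL2 at 26.5 ± 0.901. ANKRD1 thus moved from the last to the second place. YAP1 (24.8 ± 0.416), TEAD1 (24.1 ± 0.91) and CCN1 (23.5 ± 0.733) came next, and these neighbours were no further apart than their SDs.

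The make-up of the TEAD pool differed between cell states. Per length, TEAD4 held 37.3% ± 0.594 and TEAD1 33.0% ± 1.55 of the summed TEAD level in GFP cells with DMSO (SD, n = 3). In SMARCB1 cells with DMSO TEAD1 held 42.0% ± 1.47 and TEAD4 29.8% ± 0.609, so on this per-length scale their order turned. That turn depends on the exon lengths used, 10279 bases for TEAD1 and 2272 for TEAD4. In CPM, without division by length, TEAD1 was above TEAD4 in both groups. The means were 168.2 against 41.95 CPM in GFP cells and 247.3 against 38.76 CPM in SMARCB1 cells. The summed level of the 4 genes was 49.5 ± 0.501 CPM per kb in GFP cells and 57.3 ± 0.412 CPM per kb in SMARCB1 cells. WWTR1 made up 11.1% ± 0.0837 of the summed YAP1 and WWTR1 level in GFP cells and 15.1% ± 0.0775 in SMARCB1 cells, while that sum was 29.4 ± 0.337 and 29.2 ± 0.516 CPM per kb. With dBRD9-A the WWTR1 share was 10.45% ± 0.446 in GFP cells and 15.3% ± 0.228 in SMARCB1 cells. Shares within a library do not depend on how libraries are scaled, but the values rest on the lengths used, and no test was made on them.

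**Figure D3:**
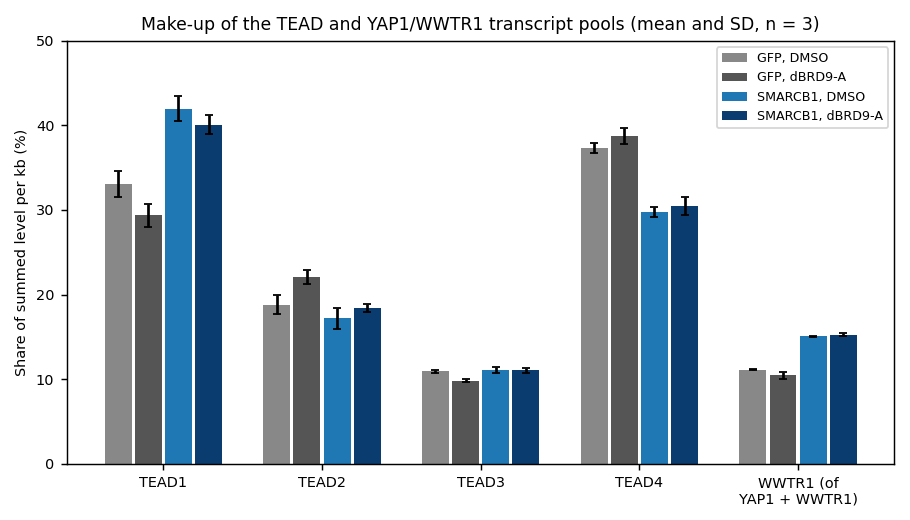
Share (%) of each TEAD gene in the summed level per kb of the 4 TEAD genes, and of WWTR1 in that of YAP1 and WWTR1, as mean and SD of 3 libraries per group. TEAD1 is at 33.0% and 29.4% in the GFP groups and 42.0% and 40.1% in the SMARCB1 groups, and TEAD4 takes the opposite course.

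BRD9 degradation was then followed in the cells without SMARCB1. In GFP cells CCN1 and TEAD2 rose and TEAD1 and TEAD3 fell, 4 of the 10 genes, where 15.9% of all genes were called, 7.43% higher and 8.47% lower. The libraries did not overlap for 5 of the 10 (these and YAP1), against 34% of all genes. CCN1 went from 36.1, 33.3 and 35.6 CPM to 44.5, 43.6 and 41.6 CPM, which is a log2 change of 0.30 (SE 0.04, adjusted p 0.00011) with no overlap. TEAD1 went from 166, 176 and 162 CPM to 151, 141 and 153 CPM, which is a log2 change of -0.18 (SE 0.04, adjusted p 0.00281). Both calls held whichever 1 of the 12 libraries was removed.

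TEAD2 went from 25.8 to 29.2 CPM to 31.5 to 33.6 CPM, which is a log2 change of 0.22 (SE 0.05, adjusted p 0.0108). Its call was lost on removal of GFP DMSO replicate 2 (adjusted p 0.0539) and of GFP dBRD9-A replicate 2 (0.0601). TEAD3 went from 16.0 to 16.7 CPM to 14.6 to 14.8 CPM, which is a log2 change of -0.16 (SE 0.05, adjusted p 0.0328). It was not called by DESeq2 (adjusted p 0.101), without a filter on low counts (0.0625) or in 5 of 12 fits without a library, which were those without GFP DMSO replicate 2 or 3 or without any 1 GFP dBRD9-A replicate (0.0709 to 0.105). Without GFP DMSO replicate 2, or without GFP dBRD9-A replicate 2, only CCN1 and TEAD1 of the 10 genes were called.

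CCN2 (0.02, 95% interval -0.07 to 0.11), AMOTL2 (-0.0006, -0.07 to 0.07), YAP1 (0.05, -0.004 to 0.11), WWTR1 (-0.05, -0.15 to 0.05) and TEAD4 (0.04, -0.05 to 0.13) did not pass the test in GFP cells. ANKRD1 had 4, 10 and 5 counts with dBRD9-A against 2, 7 and 8 in DMSO, so that its change of 0.57 (95% interval -0.41 to 1.55) could not be resolved at this depth. The direction of these changes depended on the scaling. With spike-in scaling 9 of the 10 genes were higher and 0 lower, among 71.8% of all genes called. TEAD1 was then at 0.18 (adjusted p 0.0245), TEAD3 at 0.20 (0.0247), AMOTL2 at 0.36 (1.26e-05) and CCN1 at 0.66 (8.39e-10), and ANKRD1 was not called. Relative to the median of all genes under that scaling, CCN1 stood at 0.31, TEAD2 at 0.22, TEAD3 at -0.16 and TEAD1 at -0.18.

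**Figure D4:**
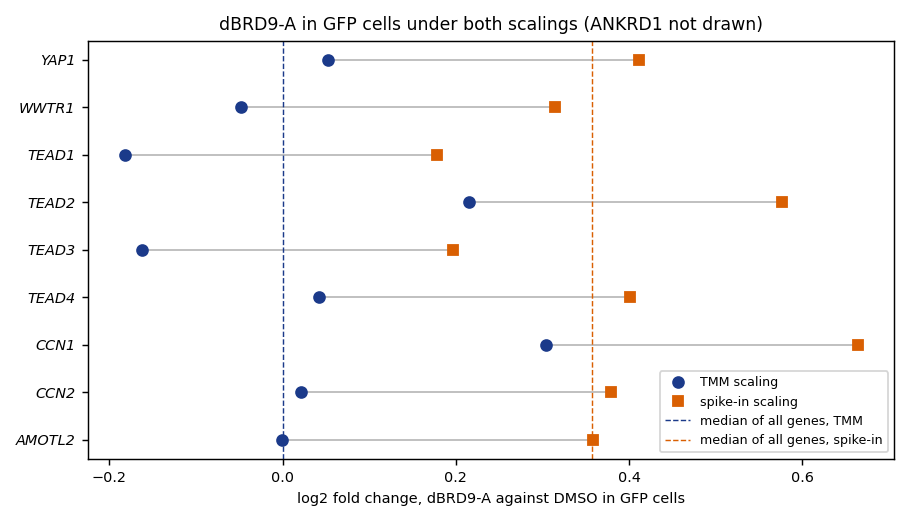
Log2 fold changes with dBRD9-A in GFP cells under TMM scaling (circles) and spike-in scaling (squares) for 9 genes, with dashed lines for the median of all genes. Each gene moves by about the shift of the median (0.36), so the order of the genes is kept while the signs of TEAD1, TEAD3, WWTR1 and AMOTL2 turn.

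dBRD9-A with SMARCB1 restored called 0 of the 10 genes in edgeR's quasi-likelihood test and 0 in the DESeq2 test, where edgeR called 1.93% of all genes, 0.679% higher and 1.25% lower. The libraries did not overlap for 3 of the 10 (TEAD1, CCN1 and ANKRD1), against 16.9% of all genes. At an unadjusted p under 0.05 there was 1 gene, CCN1. CCN1 measured 55.6, 58.4 and 59.0 CPM in DMSO and 59.4, 65.4 and 63.0 CPM with dBRD9-A, libraries that did not overlap, with a log2 difference of 0.12 (95% interval 0.03 to 0.21, adjusted p 0.197). ANKRD1, now well measured, had 54.2, 56.4 and 55.6 CPM in DMSO and 56.8, 58.0 and 59.6 CPM with dBRD9-A. Its difference was 0.07 (95% interval -0.04 to 0.18, adjusted p 0.624). For CCN2, AMOTL2, YAP1, WWTR1 and the TEAD genes the differences were between -0.07 and 0.09, and the interval of each lay within -0.15 and 0.21. All 10 remained uncalled with spike-in scaling, which called 5.54% of all genes and put the median of all genes at -0.135. Each of the 10 was then below 0, from -0.21 to -0.02.

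Whether the response to dBRD9-A differed between the cell states was tested by the interaction, the change in SMARCB1 cells minus that in GFP cells. Of the 10 genes 0 were called by edgeR, against 3.8% of all genes (2.15% positive and 1.65% negative), and 0 by DESeq2. At an unadjusted p under 0.05 there were 2, CCN1 (-0.19, 95% interval -0.31 to -0.06, adjusted p 0.117) and TEAD3 (0.15, 95% interval 0.01 to 0.29, adjusted p 0.281). CCN1 was called when SMARCB1 dBRD9-A replicate 2 was left out (-0.22, adjusted p 0.0376). By chi-square per degree of freedom between replicate counts, that library stood furthest from its group. The value was 10.68 against replicate 1 and 25.34 against replicate 3, and 7.416 between replicates 1 and 3. This measure grows with depth, and replicate 2 was the deepest of its group (53.87 megacounts against 40.68 and 44.03). TEAD1, called in GFP cells but not in SMARCB1 cells, had an interaction of 0.11 (95% interval -0.004 to 0.22, adjusted p 0.332), and TEAD2 had -0.12 (95% interval -0.28 to 0.04, adjusted p 0.474). A difference between the states was thus not shown for the genes that changed in GFP cells. Spike-in scaling made 9 of the 10 negative and called, among 71.6% of all genes called and around a median of -0.49 for all genes.

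The upstream part of the pathway was described by a list of 30 kinases, scaffolds and polarity proteins, of which 27 passed the count filter. This list too was chosen with earlier results of these data known, so it is not an independent check of them. With SMARCB1 in DMSO 19 rose and 3 fell, where 33.5% of all genes rose and 31.6% fell (21 and 3 with spike-in scaling, among 59.8% of all genes called). The median log2 fold change was 0.22 against -0.005 for all genes. With dBRD9-A present the SMARCB1 comparison gave 15 higher and 6 lower, with a median of 0.18, where 33% of all genes were higher and 30.4% lower. On the spike-in scale, where 71% of all genes were called and most of those were lower, it gave 8 higher and 13 lower. FRMD6, a FERM domain protein that acts upstream of the kinases, had 31, 33 and 31 counts in GFP libraries with DMSO and 1537, 1557 and 2315 counts in SMARCB1 libraries with DMSO. That is a ratio of 65.1 (exact binomial 95% interval 53.1 to 80.6, adjusted p 8.86e-20), and it was 49.4 (40.2 to 61.3) with dBRD9-A. AJUBA, a LIM protein that inhibits LATS kinases, rose by 1.15 (SE 0.05, adjusted p 7.57e-13), and PTPN14, a phosphatase that binds YAP1, by 0.86 (SE 0.05, adjusted p 8.12e-11). WWC1 (KIBRA), an activator of the LATS kinases, measured 83.2 ± 1.11 CPM with GFP and 49.9 ± 1.27 CPM with SMARCB1 (SD, n = 3), with a log2 difference of -0.74 (SE 0.03, adjusted p 7.22e-13).

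AMOTL1, a paralogue of AMOTL2, was lower by the same comparison, at -0.35 (SE 0.03, adjusted p 1.23e-08), as was SLMAP, a subunit of the STRIPAK phosphatase complex, at -0.33 (SE 0.03, adjusted p 1.01e-07). The scaffold SAV1 (0.74, SE 0.04, adjusted p 1.65e-11), the kinase STK4 (0.51, SE 0.03, adjusted p 3.88e-10) and the tumour suppressor NF2 (0.49, SE 0.03, adjusted p 1.3e-10) rose, and were named after their values were seen. In DMSO 5 of the 27 genes were not called, among them LATS1 (-0.02, adjusted p 0.798) and MOB1A (0.005, adjusted p 0.908). LATS1 was lower with dBRD9-A (-0.23, adjusted p 0.00396). LATS2 rose by 0.21 (adjusted p 1.11e-05) in DMSO and by 0.27 (adjusted p 5.05e-07) with dBRD9-A. LATS1, LATS2 and MOB1A were also named here after their values were seen. Of 4 VGLL cofactors, which compete with YAP1 for TEAD proteins, VGLL4 alone passed the filter. It rose by 0.15 (SE 0.03, adjusted p 0.000291) in DMSO and by 0.14 (adjusted p 0.000703) with dBRD9-A, the latter turning to -0.19 (adjusted p 0.0115) with spike-in scaling. VGLL1 and VGLL2 had 0 counts in the 12 libraries. CCN3, CCN4, CCN5 and CCN6 did not pass the filter, with at most 8 counts in a library, so that CCN1 and CCN2 were the members of the CCN family measured here at more than a trace.

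A list of 16 further YAP/TEAD target genes was set beside the 4 targets above. It was chosen with earlier results of these data known, so it is not an independent check of them. Of 14 that passed the filter 11 rose and 2 fell with SMARCB1 in DMSO, with a median log2 fold change of 1.14, where 33.5% of all genes rose and 31.6% fell (12 and 2 with spike-in scaling, among 59.8% of all genes called). With dBRD9-A present 11 rose and 0 fell, with a median of 1.25, where 33% of all genes rose and 30.4% fell (9 and 3 with spike-in scaling, among 71% of all genes called). NT5E, which encodes the surface enzyme CD73, had 0, 0 and 1 counts in GFP libraries with DMSO and 359, 394 and 537 counts in SMARCB1 libraries with DMSO, a ratio of 1470 with an exact binomial 95% interval of 264 to 58300. That ratio rests on 1 count in GFP DMSO replicate 3, and the fitted log2 fold change went from 10.02 to 11.72 without that library, and to 9.53 without GFP DMSO replicate 1. With dBRD9-A the GFP libraries had 0 counts of NT5E and the SMARCB1 libraries 341, 491 and 355, so no ratio could be computed. Its lower exact 95% limit was 272, which covers counting error only. An assumed floor of 3 counts over the GFP group would give a ratio of 334. DOCK5, a guanine nucleotide exchange factor, went from 8, 12 and 18 counts to 143, 167 and 234 counts in DMSO, a ratio of 16.4 (11.8 to 23.4), and CCDC80, an extracellular matrix protein, had a ratio of 8.63 (6.76 to 11.2). The receptor tyrosine kinase AXL measured 29.02 ± 1.02 CPM with GFP and 159 ± 4.48 CPM with SMARCB1 (SD, n = 3), with a log2 difference of 2.45 (SE 0.03, adjusted p 1.16e-19). AXL was not among the 3 largest rises of the list and was named here after its values were seen. The 2 genes that fell were NUAK2, a kinase (-0.40, SE 0.07, adjusted p 8.15e-05), and MYOF, a membrane repair protein (-0.35, SE 0.03, adjusted p 6.55e-08).

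**Figure D5:**
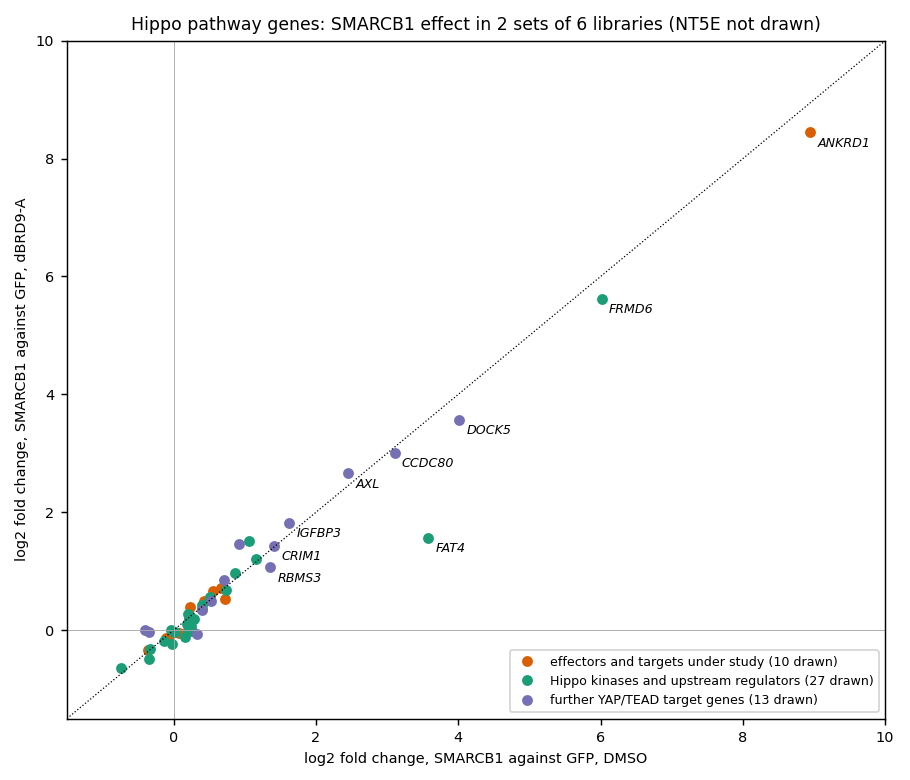
Log2 fold change of SMARCB1 against GFP in DMSO (x axis) and with dBRD9-A (y axis) for the 10 genes, the kinases and regulators and the further targets, with a dotted line of equal change; the axes share no library. ANKRD1 lies at 8.95 and 8.45 and FRMD6 at 6.02 and 5.63. NT5E, with 1 or 0 counts in the GFP groups, is not drawn.

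With dBRD9-A in GFP cells 1 gene of the same target list rose and 7 fell, with a median of -0.14, where 7.43% of all genes rose and 8.47% fell. With spike-in scaling 6 were higher and 1 lower, among 71.8% of all genes called. GADD45A, a stress-response gene, dropped: its level was 18.6 ± 1.21 CPM (SD, n = 3) under DMSO and 12.1 ± 0.148 CPM under dBRD9-A, with a log2 difference of -0.62 (SE 0.06, adjusted p 1.53e-06). AXL was at -0.49 (SE 0.04, adjusted p 1.28e-07) and MYOF at -0.41 (SE 0.03, adjusted p 1.67e-07), which spike-in scaling left at -0.13 (adjusted p 0.103) and -0.05 (adjusted p 0.53). RBMS3, an RNA-binding protein, rose by 0.20 (SE 0.05, adjusted p 0.00583). CCN1, with its rise of 0.30, was on the other side from these falls. In SMARCB1 cells AXL was the gene of the list that passed the test, at -0.29 (SE 0.03, adjusted p 4.2e-05). Of the 27 upstream genes 4 rose and 4 fell in GFP cells, against 15.9% of all genes called (25 and 0 with spike-in scaling, against 71.8%). They included the LATS1 and LATS2 regulators LIMD1 (-0.14, SE 0.04, adjusted p 0.0259) and WTIP (0.23, SE 0.06, adjusted p 0.00995), the kinases TAOK2 (0.23, SE 0.04, adjusted p 0.000323) and LATS2 (-0.13, SE 0.03, adjusted p 0.00803) and the phosphatase PTPN14 (-0.25, SE 0.05, adjusted p 0.00343). LIMD1 lost the call without GFP DMSO replicate 2 or 3 or any 1 GFP dBRD9-A replicate (adjusted p 0.0506 to 0.108), and WTIP without GFP DMSO replicate 1 or GFP dBRD9-A replicate 3 (0.0577 and 0.0501). The polarity protein PARD3 rose in both states, by 0.22 (SE 0.03, adjusted p 9.2e-06) in GFP cells and by 0.17 (SE 0.03, adjusted p 0.00122) in SMARCB1 cells. With spike-in scaling PARD3 in SMARCB1 cells was at 0.03 (adjusted p 0.733).

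The genes whose profile over the 12 libraries was most like each target were found by the root mean square difference of centred log2 CPM, among 12585 genes with a mean of at least 50 counts. For ANKRD1 they were MAP3K20 (0.36) and MID1IP1 (0.43), where the median gene was 4.21 away. These log2 CPM carried a prior count of 2, which compresses differences near 0. The fitted log2 fold changes of MID1IP1 with SMARCB1 were 12.26 in DMSO and 12.36 with dBRD9-A, against 8.95 and 8.45 for ANKRD1. Those of MAP3K20 were 8.33 and 7.88. For CCN2 they were TXNDC11 (0.04) and RIC8A (0.05), and for CCN1 SNX15 and DENND5B (both 0.07). For AMOTL2 they were SESN2 and PUS1 (both 0.03).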

How the data were processed

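The authors deposited 3 tables of RSEM expected counts per gene, each setting 2 groups side by side, and the 6 library columns that occur in more than 1 table were identical. STAR, RSEM 1.3.1 and DESeq2, and the builds GRCh37 and hg19, are named per the submitters' processing notes, without roles; annotation and strand use are not given in the sources used here. Per the labels' protocols, libraries came from a TruSeq Stranded mRNA kit. Reads of overlapping genes (YAP1, WWTR1, TEAD1, TEAD2, CCN2 and AMOTL2 overlap others in GENCODE 29) may be shared. Symbols were matched by unversioned Ensembl identifier for 51996 of 57820 genes; PECAM1, listed as a marker, was not matched, and ALB had at most 1 count.

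Expected counts were rounded. Genes passing filterByExpr (minimum count 10) were fitted over all 12 libraries with edgeR 4.0.16 in R 4.3.3 (TMM factors 0.9765 to 1.016, quasi-likelihood test, 1 coefficient per group, Benjamini-Hochberg over 15750 genes, adjusted p under 0.05). SEs come from the quasi-F statistic. For genes with few counts in 1 group, exact binomial intervals of summed counts are given instead. Alternatives were DESeq2 1.42.0, RLE factors, spike-in scaling, no filter, fits of the compared groups, a replicate block, leaving out each library and a threshold of 0.01. The test was checked on simulated counts with few changed genes, balanced in direction, so that check does not cover scaling where most genes change. Replicates differed by more than sampling noise (chi-square per degree of freedom 2.912 to 25.34). The 10 genes and all lists were chosen with earlier results of these data known. Named by rule besides the 10 were, per list and comparison, the 3 largest called changes in each direction with a mean of at least 50 counts, and the 2 nearest profiles per target. Coordinates and promoters are RefSeq's on GRCh38.p14, not the build of the counts.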

Additional observations from a re-analysis of the deposited data

Results flagged for a closer look

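The response to dBRD9-A differed between SMARCB1 and GFP cells, by the interaction in edgeR's quasi-likelihood test, for 7 genes of the fixed lists and for 0 of the 10 effectors and targets, where 3.8% of all genes were called. The lists held 27 upstream regulators, 1 TEAD cofactor and 14 further targets that were tested. Among further YAP/TEAD targets it was 0.55 for GADD45A (adjusted p 0.000501), 0.40 for NUAK2 (adjusted p 0.0335), 0.31 for MYOF (adjusted p 0.000856), 0.21 for AXL (adjusted p 0.0301), 0.19 for IGFBP3 (adjusted p 0.0221) and -0.29 for RBMS3 (adjusted p 0.00979). AXL and IGFBP3 were named after their values were seen. Among upstream regulators it was -0.28 for TAOK2 (adjusted p 0.00543). GADD45A was 18.6 ± 1.21 and 12.1 ± 0.148 CPM in GFP cells with DMSO and dBRD9-A, and 35.3 ± 1.98 and 33.5 ± 1.73 CPM in SMARCB1 cells (SD, n = 3). MYOF was 176 ± 3.35 and 133 ± 3.94 CPM in GFP cells and 138 ± 7.05 and 129 ± 1.61 CPM in SMARCB1 cells (SD, n = 3). Of the 12 fits that each left out a library, GADD45A, MYOF, RBMS3 and TAOK2 passed in all. NUAK2 passed in 3, those without GFP DMSO replicate 1, GFP dBRD9-A replicate 1 or SMARCB1 dBRD9-A replicate 1 (adjusted p up to 0.0976 in the others). AXL was lost in 7 (adjusted p up to 0.123), without GFP DMSO replicate 2 or 3, SMARCB1 DMSO replicate 1 or 3, GFP dBRD9-A replicate 1 or 2 or SMARCB1 dBRD9-A replicate 1. IGFBP3 was lost in 5 (adjusted p up to 0.0845), without GFP DMSO replicate 1 or 3, SMARCB1 DMSO replicate 1 or GFP dBRD9-A replicate 2 or 3. With spike-in scaling, which moved the median of all genes to -0.49, GADD45A was at 0.05 (adjusted p 0.72), and the sign turned for MYOF (-0.19, adjusted p 0.0808), NUAK2 (-0.10, adjusted p 0.512), AXL (-0.29, adjusted p 0.00833) and IGFBP3 (-0.30, adjusted p 0.0039). AXL was also lost with a replicate block (adjusted p 0.0508).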

How the results depend on the processing

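The SMARCB1 calls of CCN1, CCN2, ANKRD1, TEAD1 and AMOTL2 held, with their directions, under every alternative run in both treatments. When 1 library was left out, 7 to 9 of the 10 genes were called in DMSO and 8 to 9 with dBRD9-A. In the same fits 9648 to 10491 and 9352 to 10072 of all genes were called, where the main fit tested 15750. For dBRD9-A in GFP cells 9 of the 10 genes were called with spike-in scaling, 2 at an adjusted p under 0.01 and 2 to 4 with a library left out. Over all genes the counts were 11310 (11083 higher and 227 lower), 1411 and 1778 to 2804. In SMARCB1 cells the count over all genes was 873 (39 and 834) with spike-in scaling, 652 without a filter on low counts, 159 with only the compared groups fitted, 144 at 0.01 and 169 to 422 with a library left out. For the interaction 9 of the 10 genes were called with spike-in scaling (0 higher, 9 lower) and 0 to 1 with a library left out; over all genes the counts were 11270 (66 and 11204), 305 at 0.01 and 422 to 862 with a library left out. Spike-in scaling also turned the split over all genes to 6831 higher and 2581 lower for SMARCB1 in DMSO and to 2129 and 9046 with dBRD9-A. Among the 10 genes and the named list genes, the signs below turned with spike-in scaling where a value was called under either scaling. They were, in DMSO, YAP1 (0.093) and TEAD4 (0.056), and with dBRD9-A VGLL4 (-0.19). For dBRD9-A in GFP cells they were WWTR1 (0.31), TEAD1 (0.18), TEAD3 (0.20), AMOTL2 (0.36), PTPN14 (0.11), LIMD1 (0.22) and LATS2 (0.23). For the interaction they were WWTR1 (-0.43), TEAD1 (-0.39), TEAD3 (-0.35), CCN2 (-0.43), AMOTL2 (-0.47), NUAK2 (-0.10), MYOF (-0.19), AXL (-0.29) and IGFBP3 (-0.30). Signs of values near 0 that were called under neither scaling turned too: 7 of the 10 genes for dBRD9-A in SMARCB1 cells with spike-in scaling and, with a library left out, values such as AMOTL2 in GFP cells (-0.025 to 0.022). Which scaling reflects RNA per cell was not tested. The interaction uses all 4 groups, so a fit of only the compared groups does not apply to it.

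Replicate numbers are shared by the groups, but same-numbered libraries did not deviate together: over 18 pairs r was -0.06 to 0.06, and 3 of 12 libraries correlated best with their own number. With a replicate block 9, 9, 4, 0 and 0 of the 10 genes were called (SMARCB1 in DMSO, SMARCB1 with dBRD9-A, dBRD9-A in GFP cells, dBRD9-A in SMARCB1 cells, interaction), with no call of the 10 changed, and 10113, 9812, 2233, 254 and 529 over all genes; the AXL interaction missed the threshold (adjusted p 0.0508). Depth limits ANKRD1 in GFP cells, where a library held 2 to 10 counts.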
